A study of Rattus norvegicus with 8 samples.

Results

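The enzymes described here are 5 gene products of NADPH supply in rat pulmonary artery smooth muscle cells: Pgd, Taldo1, Tkt, Me1 and Idh1. All probe sets annotated to a single one of these genes were taken, whatever their values. This gave 10 of the 8799 probe sets on the array, whose single-gene probe sets cover 4737 genes, namely 1 for Taldo1, 2 for Tkt, 5 for Me1 and 2 for Idh1. Pgd had 0, since the 2 probe sets that list it also list other genes, and no value is given for it. RNA was measured on 8 Affymetrix rat genome U34 A arrays, 2 for each of 4 groups: cells exposed for 1, 2 or 4 h to S-nitrosoglutathione (GSNO), a compound that releases nitric oxide, and cells left untreated (control). The primary cells grew out of explants of pulmonary arteries from adult Sprague-Dawley rats, with endothelium and adventitia stripped off, and all groups share this origin. The submitters' texts disagree on the concentration, with 100 μmol/L in the series design and 100 mmol/L in the treatment protocol. The control group has no stated time, so time in culture and exposure to GSNO cannot be told apart. The series design names 2 independent preparations of cells without tying them to the array numbers 1 and 2, so the p-values may measure only the spread between arrays.

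NADPH carries the electrons that cells use to reduce oxidised glutathione and thioredoxin, to reduce quinones and to build fatty acids and sterols. In the pentose phosphate pathway, glucose-6-phosphate dehydrogenase and 6-phosphogluconate dehydrogenase (Pgd) form NADPH in the oxidative branch. Transketolase (Tkt) and transaldolase (Taldo1) form none themselves: they exchange carbon units in the non-oxidative branch and so return pentoses to glycolysis or draw them from it. Cytosolic malic enzyme (Me1) makes NADPH from malate and the cytosolic and peroxisomal isocitrate dehydrogenase (Idh1) makes it from isocitrate. In vascular smooth muscle, NADPH is also the electron source of the superoxide-forming NADPH oxidases. The transcription factor NRF2, which binds antioxidant response elements, is known in mice and in human cell lines to raise transcripts of malic enzyme and of pentose phosphate enzymes.

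Promoter windows for all 5 genes came from RefSeq on build GRCr8, each running from 250 bases before to 50 bases after the annotated start. They were searched on both strands for 3 motifs: the antioxidant response element core TGACNNNGC, the cAMP response element TGACGTCA and the CCAAT box CCAAT, the last of which was added after the windows had been seen. Of 33469 RefSeq windows of the same length, 12.1% hold the first motif, 1.83% the second and 37.5% the third. The Me1, Idh1 and Taldo1 windows are shown because each holds a match to one of the motifs and because the results below turn on these genes. They are written 5′ to 3′ on the strand of the gene, with the match in capitals. The Me1 window is chr8:96540195-96540494 on the minus strand, Idh1 is chr9:74049425-74049724 on the minus strand and Taldo1 is chr1:205922946-205923245 on the plus strand.
Me1: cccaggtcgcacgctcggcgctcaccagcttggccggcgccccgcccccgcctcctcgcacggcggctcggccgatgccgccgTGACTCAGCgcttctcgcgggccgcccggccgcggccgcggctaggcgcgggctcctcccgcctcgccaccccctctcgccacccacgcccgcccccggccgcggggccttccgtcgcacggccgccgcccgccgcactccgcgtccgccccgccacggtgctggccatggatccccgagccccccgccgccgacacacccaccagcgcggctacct
Idh1: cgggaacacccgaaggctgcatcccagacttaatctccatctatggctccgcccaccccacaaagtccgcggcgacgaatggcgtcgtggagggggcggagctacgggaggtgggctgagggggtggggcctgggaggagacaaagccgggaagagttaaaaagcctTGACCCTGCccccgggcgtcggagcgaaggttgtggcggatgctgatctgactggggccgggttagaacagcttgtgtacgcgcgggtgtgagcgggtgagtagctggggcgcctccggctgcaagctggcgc
Taldo1: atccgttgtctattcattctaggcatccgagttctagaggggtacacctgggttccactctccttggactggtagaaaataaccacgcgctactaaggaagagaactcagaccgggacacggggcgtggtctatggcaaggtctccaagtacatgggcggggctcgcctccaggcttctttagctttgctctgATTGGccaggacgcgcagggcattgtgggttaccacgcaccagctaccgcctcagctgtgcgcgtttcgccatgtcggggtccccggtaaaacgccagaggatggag
Me1 holds TGACTCAGC, a match to the antioxidant core, starting 167 bases before the start, and Idh1 holds TGACCCTGC starting 83 bases before it. Taldo1 holds neither this core nor the cAMP element. Its capitals ATTGG are the CCAAT box read from the other strand, 57 bases before the start, and Pgd holds the same letters 31 bases before its start. The Tkt window, chr16:5729982-5730281 on the plus strand, holds none of the 3 motifs, and 0 of the 5 windows hold TGACGTCA. No match overlaps another. The Me1 window is 81.7% G and C, above 99.5% of windows, against 65.7% for Idh1, 57.3% for Taldo1, 54.3% for Tkt and a median of 51.7% over all windows. The starts used for Idh1 and Tkt lie 7968 and 851 bases inside the outer edge of the annotated gene, so other starts exist for these genes. A match is a description of letters, and nothing follows from a missing one about a factor.

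The arrays were comparable in scale. The authors' software had set their trimmed mean to about 501 on each, and the median signal ran from 100.0 to 141.2. The 20th percentile was 16.4 and 17.6 on the 4 h arrays, against 28.5 and 21.0 on the control arrays. The array records show arrays numbered 1 and 2 in 2 scan runs with different fluidics protocols. They name 3 experiments: all 4 arrays numbered 2 belong to 1 of them, whereas among arrays numbered 1 the control and 2 h arrays belong to another and the 1 h and 4 h arrays to a further one. The 1 h array numbered 1 was also the only array of its chip lot. Smooth muscle markers were present: of 21 probe sets, 1, for desmin (Des), lay below its array's 40th percentile on all 8 arrays. Among markers of other cells, 5 of 11 endothelial probe sets (Kdr among them), 7 of 12 of macrophages and leukocytes (Lyz2, Itgam and Csf1r among them) and 8 of 13 of lung epithelium (Sftpc and Scgb1a1 among them) lay below it on all 8. Others lay below it on no array, namely 2 endothelial probe sets (Flt1 and a Nos3 probe set), 2 of macrophages and leukocytes (both Cd14), 1 of lung epithelium (Sftpb) and 8 of 16 of fibroblasts and adventitia (Col1a1, Col1a2, Lum, Thy1 and Pdgfra). In these bulk samples fewer cells of a type and less RNA per cell cannot be told apart.

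Signals were analysed as log2 of signal plus an offset of 21.1 units, and fold changes are on that scale. A probe set was tested when it reached its array's 40th percentile on at least 2 arrays. Of the 10 probe sets 9 did, among 5877 on the whole array. The exception is the Idh1 probe set rc_AA944025_at, which lay below that level on all 8 arrays with signals of 7.74 to 19.0. A call means a limma adjusted p under 0.05 over all 5877. The fit was run without a block and with the array number as a block (the replicate block), since arrays of the same number deviated together. The block leaves the fold changes as they are and alters their error.

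After 4 h of GSNO the transcripts of the non-oxidative pentose phosphate branch and of malic enzyme were higher than in untreated cells, while that of Idh1 was lower. The mean signal of Taldo1 rose 2.57-fold, and Taldo1 was the only member called without the block. With the replicate block, the probe set of Taldo1, 1 of 2 of Tkt and 4 of 5 of Me1 rose, and the tested probe set of Idh1 fell. With the recorded experiment as the block, Taldo1 alone was called at 4 h. At 1 h and 2 h no member was called in the fit without a block or in that with the replicate block.

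**Figure D1:**
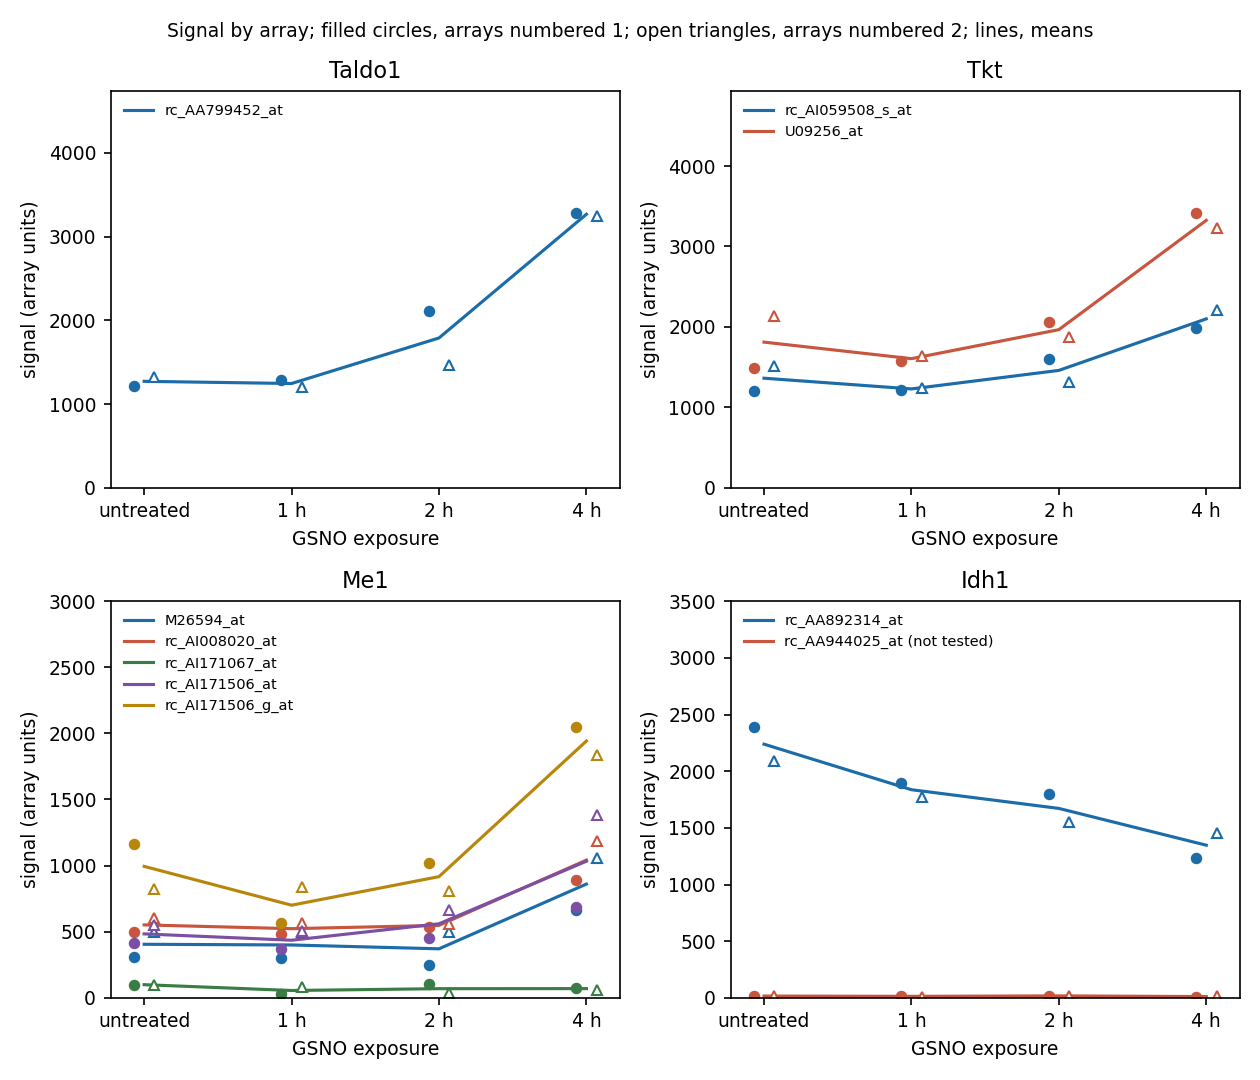
Signal of each member probe set on every array (vertical axis, linear array units) in untreated cells and after 1, 2 and 4 h of GSNO (horizontal axis), with circles for arrays numbered 1, triangles for arrays numbered 2 and lines through the means. Both 4 h arrays lie above both control arrays for Taldo1, both Tkt probe sets and 4 Me1 probe sets. They lie below them for Idh1 rc_AA892314_at and Me1 rc_AI171067_at, and overlap with them for the untested Idh1 rc_AA944025_at. Levels of different probe sets are not comparable.

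Transaldolase showed the firmest change. Its probe set rc_AA799452_at had signals of 1216, 1286, 2114 and 3284 on the arrays numbered 1 for control, 1, 2 and 4 h. On the arrays numbered 2 it had 1327, 1205, 1465 and 3248 in the same order. The 4 h arrays lay close together and far above all others, the 1 h arrays overlapped the controls, and the 2 h arrays lay above both controls but apart from each other. The mean was 3266 ± 25.7 at 4 h and 1272 ± 78.0 in control (SD, n = 2 each). The log2 fold change at 4 h was 1.35 ± 0.247 (SE), with a 95% interval of 0.78 to 1.92 (limma adjusted p = 0.0433; 0.002 with the replicate block). It was 1.42 between arrays numbered 1 and 1.28 between arrays numbered 2, which share a recorded experiment, and it also passed with the recorded experiment as a block (limma adjusted p = 0.0287). The call without the block rested on single arrays: the limma adjusted p became 0.150 or 0.128 when a 4 h array was left out, 0.267 or 0.166 when a control array was, and 0.0764 or 0.074 when a 1 h array was. The 1 h arrays enter this comparison only through the shared estimate of the spread. At 2 h the change was 0.46, with an interval of -0.10 to 1.03, and was not called (limma adjusted p = 1.00; 0.348 with the block). It was 0.79 between arrays numbered 1 and 0.14 between arrays numbered 2. At 1 h it was -0.03, with an interval of -0.60 to 0.54.

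Transketolase, its partner enzyme, was also highest at 4 h. The probe set U09256_at had 1490, 1578, 2059 and 3417 on arrays numbered 1 for control, 1, 2 and 4 h, and 2133, 1633, 1873 and 3233 on arrays numbered 2. Control, 1 h and 2 h overlap, and both 4 h arrays stand above all the rest. The mean was 3325 ± 131 at 4 h and 1811 ± 455 in control (SD, n = 2 each), a ratio of 1.84. The log2 fold change was 0.89 ± 0.246 (SE), with a 95% interval of 0.33 to 1.46, and passed with the replicate block but not without it (limma adjusted p = 0.0186 and 0.154). It was not called with the recorded experiment as a block (0.79, limma adjusted p = 0.174). The control arrays of this probe set differed from each other by more than those of Taldo1, and the change was 1.19 between arrays numbered 1 and 0.59 between arrays numbered 2. The other probe set, rc_AI059508_s_at, had 1209, 1219, 1602 and 1992 on arrays numbered 1 and 1517, 1240, 1317 and 2209 on arrays numbered 2. Its 4 h values were again the highest on each set of arrays. Its change of 0.62 ± 0.236 (SE) was not called in either fit (limma adjusted p = 0.345; 0.0817 with the block), nor with the experiment block (limma adjusted p = 0.261). The signals of the Tkt probe sets correlated at r = 0.974 over the 8 arrays, and those of Taldo1 with them at 0.952 and 0.940. These are descriptions over arrays that share groups and runs.

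Malic enzyme was measured by 5 probe sets, of which rc_AI171506_at and rc_AI171506_g_at come from the same source sequence and are not independent. The probe set M26594_at had 312, 299, 245 and 662 on arrays numbered 1 for control, 1, 2 and 4 h, and 498, 500, 496 and 1058 on arrays numbered 2. The arrays numbered 2 were higher throughout, and in each set the level stood flat or lower until 2 h and highest at 4 h. The change at 4 h was 1.04 and 1.06 within the array numbers, or 1.05 ± 0.435 (SE), with a 95% interval of 0.05 to 2.05. It was not called without the block and rose with it (limma adjusted p = 0.414 and 0.0120). For rc_AI008020_at the signals were 499, 482, 537 and 893 on arrays numbered 1, and 604, 563, 559 and 1189 on arrays numbered 2. The 4 h arrays again did not overlap with any other array. The change was 0.88 ± 0.254 (SE; limma adjusted p = 0.172, and 0.0207 with the block).

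The pair from a shared sequence gave changes of like size. The probe set rc_AI171506_at had 417, 368, 454 and 684 on arrays numbered 1 and 550, 503, 665 and 1382 on arrays numbered 2. Its 4 h values differed by array number, and the change was 0.69 between arrays numbered 1 and 1.30 between arrays numbered 2, or 0.99 ± 0.382 (SE; limma adjusted p = 0.360, and 0.0208 with the block). The probe set rc_AI171506_g_at had 1167, 566, 1021 and 2045 on arrays numbered 1, and 822, 834, 811 and 1838 on arrays numbered 2. Its 1 h array numbered 1, from the chip lot that no other array shares, was the lowest. The change at 4 h was 0.97 ± 0.292 (SE; limma adjusted p = 0.196, and 0.0392 with the block). That call was lost under quantile normalization with the block, where 3 Me1 probe sets passed. With the recorded experiment as a block none of these 4 Me1 probe sets was called, with changes of 0.96 to 1.27 (limma adjusted p = 0.0529 to 0.0908). Their means at 4 h were 1.89 to 2.14 times those in control.

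The remaining Me1 probe set, rc_AI171067_at, did not share this course. It had 101, 27.3, 102 and 77.1 on arrays numbered 1 and 98.3, 83.6, 36.2 and 62.4 on arrays numbered 2, and lay below the 40th percentile on 3 of 8 arrays. Both 4 h arrays lay below both controls. The change of -0.41 had an interval of -1.62 to 0.80 (limma adjusted p = 0.829), and it was 0.09 with the recorded experiment as a block. Its correlation with the other Me1 probe sets over the 8 arrays was -0.065 to 0.396, against 0.621 to 0.924 among those 4.

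Isocitrate dehydrogenase went the other way. The probe set rc_AA892314_at had 2386, 1901, 1796 and 1238 on arrays numbered 1 for control, 1, 2 and 4 h, and 2092, 1773, 1548 and 1457 on arrays numbered 2. Every exposed array was below both control arrays, and both numbers show the lowest level at 4 h. The mean was 1347 ± 155 at 4 h, 1672 ± 176 at 2 h, 1837 ± 90.0 at 1 h and 2239 ± 208 in control (SD, n = 2 each). The log2 fold change was -0.28 at 1 h, -0.42 at 2 h and -0.73 ± 0.227 (SE) at 4 h, with a 95% interval of -1.25 to -0.20 at 4 h. At 4 h it was called with the replicate block and not without it (limma adjusted p = 0.0327 and 0.216). The median of all tested probe sets at 4 h was -0.16, and scaling the arrays to a common median moved it to 0.04. With that scaling the Idh1 change was -0.51 and was not called with the block (limma adjusted p = 0.263), whereas quantile normalization with the block gave -0.76 (limma adjusted p = 0.0305). With the recorded experiment as a block it was -0.59 and not called (limma adjusted p = 0.233). The Idh1 call therefore depends on the scaling and on the block. With the common median and the block, Taldo1 (1.57), the U09256_at probe set of Tkt (1.11) and 4 Me1 probe sets (1.10 to 1.26) were each called.

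**Figure D2:**
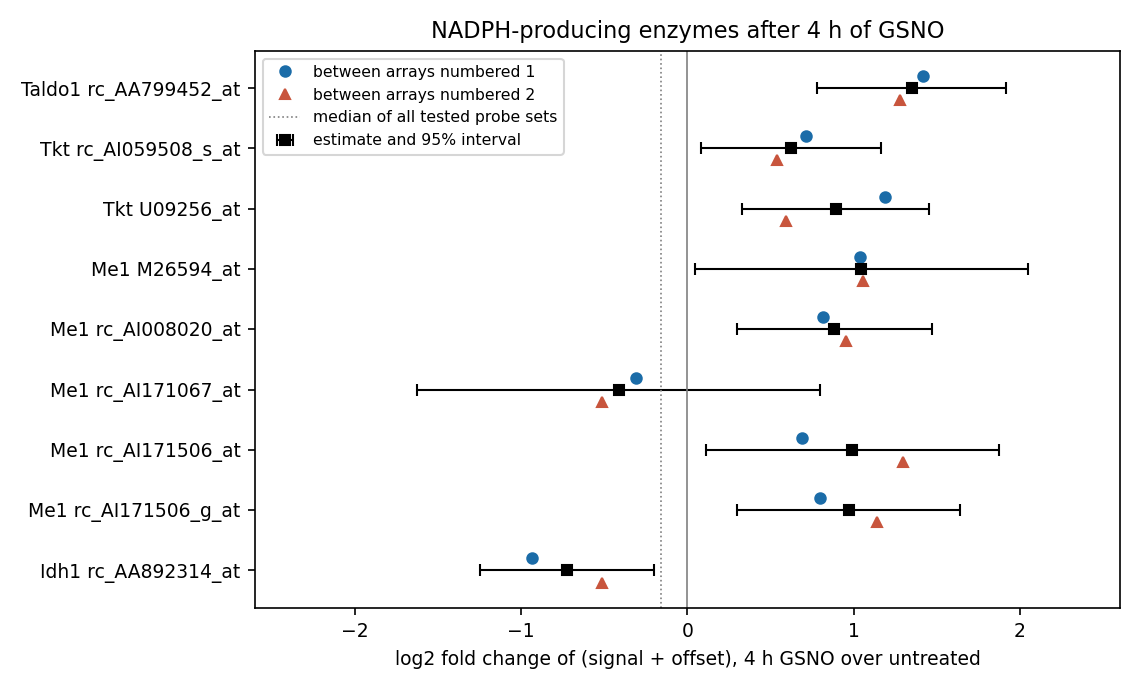
Log2 fold change of each tested member probe set at 4 h of GSNO over untreated cells (horizontal axis), with the 95% interval of the fit without a block as a bar, the change between arrays numbered 1 as a circle, and that between arrays numbered 2 as a triangle. The dotted line is the median of all tested probe sets, -0.16. All probe sets but rc_AI171067_at have an interval that leaves out 0, and the changes within the 2 array numbers share their sign for each of the 9.

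Counted over the 9 tested probe sets, limma called 1 as higher and 0 as lower at 4 h, where 8 had an unadjusted p under 0.05 (11.1% of all probe sets). The shares called over all 5877 probe sets were 0.953% higher and 0.579% lower. With the replicate block 6 were called as higher, covering 3 genes, and 1 as lower, against 4.25% and 3.68% of all probe sets. With the recorded experiment as a block, 1 was higher and 0 lower, where 165 of all 5877 probe sets were called in either direction. Both 4 h arrays lay above both controls for 7 of the 9 and below them for 2, while this held for 13.4% and 27.5% of all tested probe sets. The median change of the 9 was 0.89, against -0.16 over all. The members were chosen with earlier results of these data known, so these shares describe them and do not test them as a set. At 1 h the 9 changes ran from -0.76 to -0.02, with a median of -0.15 against -0.05 over all probe sets. At 2 h they ran from -0.52 to 0.46, with a median of 0.00 against -0.06. In limma 0 of 9 were called at 1 h in either fit (0.527% of all probe sets, and 1.34% with the block), and 0 had an unadjusted p under 0.05 (3.01% and 5.73% of all). At 2 h 0 of 9 were called in either fit (0.97% and 3.16% of all), where 0 had an unadjusted p under 0.05 without the block and 2 with it, Taldo1 and Idh1 (6.13% and 12.1% of all).

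The times were also compared with each other. Between 4 h and 1 h, limma called 0 of the 9 without the block, with the lowest adjusted p at 0.0699 for Taldo1, and 7 with an unadjusted p under 0.05 (9.04% of all probe sets). The replicate block gave 7 as higher at the later time, namely Taldo1, both Tkt probe sets and the 4 Me1 probe sets described first. The shares of all probe sets higher at 4 h were 0.204% without and 2.65% with the block. The changes were 1.38 for Taldo1 (limma adjusted p = 0.00298 with the block), 0.76 and 1.04 for Tkt and 0.96 to 1.47 for Me1. With the recorded experiment as a block, 6 of them passed, and the Tkt probe set rc_AI059508_s_at did not. Between 4 h and 2 h, limma called 0 without the block, where 5 had an unadjusted p under 0.05 (5.62% of all probe sets). With the block it called 1, the Me1 probe set M26594_at (1.21, limma adjusted p = 0.0428). The shares of all probe sets called as higher there were 0% and 0.204%. Taldo1 was 0.88 higher at 4 h than at 2 h and did not pass with the block (limma adjusted p = 0.0806). Between 2 h and 1 h, 0 members were called in either fit (0% and 0.034% of all probe sets), where 0 had an unadjusted p under 0.05 without the block and 1 with it (2.79% and 7.33% of all). In limma's F test of all 3 times against control, 0 of the 9 were called without the block, where 4 had an unadjusted p under 0.05 (7.84% of all probe sets). With the block 6 were called, and the shares of all probe sets called were 1.14% without and 5.94% with it. These comparisons share arrays and are not independent of each other.

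Genes whose signal followed each member most closely over the 8 arrays were looked up by Pearson's r, from the member's probe set with the highest mean. For Taldo1 they were Bcat1, the cytosolic branched-chain aminotransferase (r = 0.982), Ptgr1, an NADPH-dependent reductase (r = 0.974), and Nqo1, a quinone reductase that uses NADH or NADPH (r = 0.972). At 4 h the log2 fold changes of these genes were 1.68, 2.17 and 5.47. The Ptgr1 probe set lay below the 40th percentile on 6 of the 8 arrays, and this Nqo1 probe set on 3. For Tkt they were the tetraspanin Cd82 (r = 0.983), the stress-inducible gene Gadd45a (r = 0.968) and the glycolytic enolase Eno1 (r = 0.968), with smaller changes at 4 h of 1.01, 0.54 and 0.59. For Me1 they were Ece1, the endothelin-converting enzyme, Calu, a calcium-binding protein of the secretory pathway (r = 0.956 each), and Scd2, a fatty acid desaturase (r = 0.950). Their changes at 4 h were 0.49, 0.25 and 0.91, and Ece1 and Calu were not called in either fit. For Idh1 they were Rrad, a small GTPase (r = 0.975), the proline transporter gene Slc6a7 (r = 0.972) and Ints6l (r = 0.962), with changes of -1.80, -0.79 and -1.56. Slc6a7 and Gadd45a were also not called in either fit, and of all these genes only Bcat1 and Nqo1 were called without the block. These values describe 8 arrays in 4 groups and carry no test.

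Genes of the oxidant response on the same arrays were compared by their log2 fold changes. Gclc, which encodes the catalytic part of the first enzyme of glutathione synthesis, had 2.76, 4.08 and 4.46 at 1, 2 and 4 h. The probe sets of Nqo1 had 0.02, 3.20 and 4.59 (J02679_s_at) and 0.86, 2.71 and 5.47 (M58495mRNA_at). Taldo1 had -0.03, 0.46 and 1.35. The difference between genes in time course was not tested.

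Other enzymes of NADPH supply and of the pentose phosphate pathway were covered thinly. Of 25 listed genes 7 had a single-gene probe set, all tested with 10 probe sets, and 0 were called at 4 h by limma without the block. With the replicate block 1 gene rose and 2 fell. Beside this and the later lists, 0.953% of all 5877 probe sets were called higher at 4 h and 0.579% lower without the block. With the replicate block these shares were 4.25% and 3.68%. Glud1, the mitochondrial glutamate dehydrogenase, had 6865 and 5902 at 4 h, against 3890 and 3775 in control, in the probe set that rose with the block (0.73, limma adjusted p = 0.0143), while its other probe sets gave 0.56 and 0.17. Mitochondrial isocitrate dehydrogenase, Idh2, had 1467 and 1560 at 4 h, against 2657 and 3155 in control, and fell with the block (-0.93, limma adjusted p = 0.0104). Its other probe set gave -0.59 and was not called. Nnt, the transhydrogenase that makes NADPH in mitochondria, fell with the block by 0.65 on the log2 scale (limma adjusted p = 0.0425). With scaling to a common median, neither Idh2 nor Nnt was called with the block (limma adjusted p = 0.132 and 0.427). The tested Idh1 probe set, the called Idh2 probe set and Nnt thus shared both their direction and this dependence on scaling. Prps2, which makes the ribose donor of nucleotide synthesis, had -0.71, the folate enzyme Mthfd1 had -0.31 and Aldh1l1, which forms NADPH from formyl folate, had 0.13, and none was called. The median of the list was -0.22, against -0.16 over all probe sets.

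The next list holds enzymes that spend reducing power on glutathione, thioredoxin, quinones, haem and carbonyls. Of its 17 tested genes 3 rose at 4 h without the block (Hmox1, Nqo1 and Por) and 7 with it, and 0 fell in either fit. The median over their 33 probe sets was 0.90, against -0.16 over all. Hmox1, haem oxygenase, had log2 fold changes of 4.64 and 4.72 in its probe sets, and Nqo1 of 4.59 and 5.47. Por, the reductase that passes electrons from NADPH to cytochrome P450 and haem oxygenase, had 1251 and 1606 at 4 h, against 624 and 468 in control, in the probe set that was called (1.36, limma adjusted p = 0.0435). With the block the rise also covered Txnrd1, thioredoxin reductase (2.14, limma adjusted p = 5e-05), Gsr, glutathione reductase (1.62, limma adjusted p = 0.00995), Ptgr1 (2.17, limma adjusted p = 0.0183) and Cbr1, a carbonyl reductase. Without the block the adjusted p of these Txnrd1, Gsr and Ptgr1 probe sets was 0.0609, 0.0634 and 0.0838 in limma. Cyb5r3, Adh5 and Qdpr in this list use mainly NADH or NAD, and none of them was called. Nor were Akr1b1 (-0.62 and -0.05), Spr (-0.28) and Txnrd2 (-0.11 and 0.18).

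Lipid synthesis also spends NADPH, though not every enzyme in this list uses it, and the list split. A rise in the list is therefore not by itself a rise of an NADPH user. Of 12 tested genes 0 rose and 1 fell without the block, and 2 rose and 2 fell with it. The desaturase genes Scd2 (1.94, limma adjusted p = 9.07e-04) and Scd (1.74, limma adjusted p = 0.00983) rose with the block. Of the other tested Scd2 probe sets, those at 1.41 and 0.91 were also called with the block, and those at 0.44 and 0.36 were not (limma adjusted p = 0.254 and 0.284). The sterol synthesis genes Msmo1 (-1.34, limma adjusted p = 0.0435 without the block) and Sqle (-1.34, limma adjusted p = 0.0185 with it) fell. Scd2 had 1747 and 905 at 4 h, against 536 and 178 in control. Lss, in sterol synthesis, gave -0.58 and Hsd17b7 0.53, and neither was called. The median was -0.12, and 0.07 with scaling to a common median, so its sign depends on the scaling. Among 18 tested genes of neighbouring carbon metabolism, Hk2, the inducible hexokinase that makes glucose-6-phosphate, was the only gene called without the block at 4 h (4.55, limma adjusted p = 0.0214). The called Hk2 probe set had 560 and 2529 at 4 h, against low signals of 65.1 and 10.0 in control. It lay below the 40th percentile on 2 arrays. The other Hk2 probe set gave 1.09 and was not called (limma adjusted p = 0.538). With the block Hk2 rose and Aco1, the cytosolic aconitase, fell (-1.09, limma adjusted p = 0.00408). Aco1 was not called with scaling to a common median and the block (limma adjusted p = 0.0526). Hk1, Pfkl and Pfkp gave 0.62, 0.60 and 0.51 and Aldoc -0.63, and none was called. The list's median was 0.00.

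**Figure D3:**
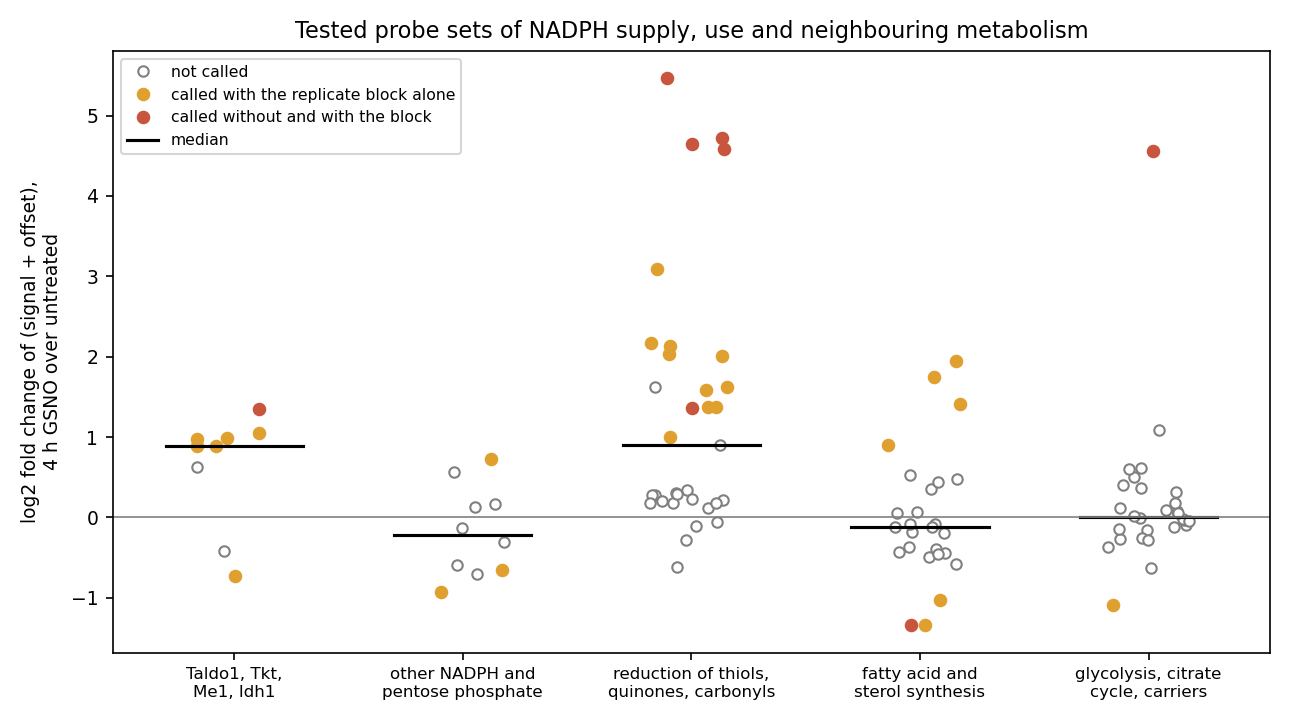
Log2 fold change at 4 h of GSNO over untreated cells (vertical axis) of the tested probe sets of the 4 measured members and of 4 gene lists (horizontal axis), 1 point per probe set, coloured by whether limma called it without and with the replicate block, with a bar at the median. The medians are 0.89 for the members, -0.22 for other enzymes of NADPH supply and the pentose phosphate pathway, 0.90 for reductive enzymes, -0.12 for lipid synthesis and 0.00 for neighbouring carbon metabolism.

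Summed signals of the markers of other cell types were set beside the members' changes at 4 h. Over 11 endothelial probe sets, 5 of them below the 40th percentile on all arrays, the summed signal was 504 and 784 at 4 h, against 889 and 899 in control. Over 12 macrophage and leukocyte probe sets, 7 of them below it throughout, it was 777 and 1206 at 4 h, against 892 and 1442. Over 13 lung epithelial probe sets, 8 of them below it throughout, it was 719 and 497 at 4 h, against 1037 and 583, and over 11 of cardiac and skeletal muscle, 5 below it throughout, 885 and 477 against 1317 and 697. Each of these sums was lower at 4 h than in control on the array of the same number. The 20th percentile of all signals was lower too, at 16.4 and 17.6 on the 4 h arrays against 28.5 and 21.0 in control. Both 4 h arrays lay below both controls for 27.5% of all tested probe sets. Smooth muscle markers summed to 155880 and 110180 at 4 h, against 175180 and 125340 in control, over 21 probe sets. Those of fibroblasts and adventitia summed to 46544 and 42107 at 4 h, against 54160 and 47259, over 16 probe sets of which 4 lay below the 40th percentile throughout. Dcn, a proteoglycan of fibroblasts, was the marker called at 4 h without the block, in its probe set X59859_i_at (-2.42). This probe set had low signals of 16.0 and 18.5 at 4 h, against 170 and 200 in control, and changed by 0.37 at 2 h. The other tested Dcn probe set, Z12298cds_s_at, gave -0.35 at 4 h and was not called in either fit. With the replicate block, 2 of 20 tested smooth muscle probe sets were called lower at 4 h, against 3.68% of all probe sets. They were rc_AI144767_s_at of Tpm1 (-1.96, limma adjusted p = 0.0207) and X16262_s_at of Myh11 (-0.60, limma adjusted p = 0.0434). The other tested probe sets of Tpm1 and Myh11 were not called. The part of these differences in the members' changes was not tested.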

How the data were processed

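RNA of 8 samples was measured on 1-colour arrays. The deposited table gives, for each probe set and array, 1 linear signal intensity that the authors obtained with Affymetrix software version 5.0, per the series design. No detection calls were used here. Array records deposited with the samples gave scan run, lot, fluidics and experiment. Gene symbols came from the platform annotation held by GEO: 7018 probe sets had 1 symbol, 308 several and 1473 none, and 6994 gene IDs were found in RefSeq. After leaving out 59 control features, 5877 of 8740 probe sets were kept (40th percentile on at least 2 arrays). The offset of 21.1 is the median of the arrays' 20th percentiles, and it understates fold changes of weak probe sets.

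All 4 groups entered a single limma fit (limma 3.58.1, R 4.3.3) by lmFit and eBayes with a variance trend, leaving 4 residual degrees of freedom. Tests were two-sided, with Benjamini-Hochberg adjustment over the 5877. The script was tested on simulated data. Deviations of same-numbered arrays from their group means had correlations of 0.387 to 0.569 over the 6 group pairs, so the array number served as a block. Same-numbered arrays also share a scan run and a fluidics protocol, and arrays numbered 1 come from different recorded experiments. The correlations therefore do not show that the array number pairs preparations of cells. No pair of arrays held identical values. Figures and tables used Python 3.11.15, pandas 2.3.3 and matplotlib 3.10.9. The small number of arrays limits the precision.

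The members and the gene lists were chosen with earlier results of these data known. All member probe sets are named. Each list names up to 6 genes, those called first and then those with the largest change at 4 h. Cbr1, Cyb5r3, Adh5, Qdpr, Akr1b1, Spr and Txnrd2 were named outside this rule, after their values were seen. The 3 genes most alike to a member are named by r. Alternatives changed the block, scaling, offset, filter, variance trend and samples.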

Additional observations from a re-analysis of the deposited data

How the results depend on the processing

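The changes at 4 h kept their direction for 8 of the 9 tested probe sets in all 20 alternatives, and Me1 rc_AI171067_at became 0.091 with the recorded experiment as a block. The Taldo1 value at 4 h ran from 1.29 to 1.57 and was called in 11 of 20. It was not called under quantile normalization (adjusted p = 0.0567), without the variance trend (0.0856), with only the 2 groups compared (0.102) or without any 1 of the 6 arrays named above. Member probe sets called at 4 h numbered 1 without a block, 7 with the replicate block, 6 with scaling to a common median and the block, 6 with quantile normalization and the block (an alternative chosen after seeing the data), and 0 under quantile normalization, without the variance trend or with only the 2 groups. Leaving out 1 array gave 0 to 1. For 4 h against 1 h the count was 0 without a block and, in the same order of blocked fits, 7, 7 and 6, with 6 under the experiment block. For 4 h against 2 h it was 0, then 1, 1 and 1, and for the F test 0, then 6, 6 and 5, with 2 under the experiment block. At 1 h, 2 h and 2 h against 1 h it was 0 in every alternative run.

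Over all probe sets, the counts without a block, with the replicate block, with a common median and the block, and with quantile normalization and the block were 31, 79, 73 and 78 at 1 h; 57, 186, 152 and 177 at 2 h; and 90, 466, 414 and 429 at 4 h. For 4 h against 1 h they were 28, 300, 279 and 283, for 4 h against 2 h 0, 32, 26 and 23, for 2 h against 1 h 0, 2, 1 and 1, and for the F test 67, 349, 338 and 327. The experiment block gave 152 at 2 h, 165 at 4 h, 201 for 4 h against 1 h, 1 for 4 h against 2 h and 192 for the F test. With only the 2 groups compared there were 37 at 2 h and 0 for 4 h against 1 h, which had 4 without the variance trend, and quantile normalization gave 1 for 2 h against 1 h. Leaving out 1 array gave 5 to 27 at 1 h, 19 to 52 at 2 h, 32 to 87 at 4 h, 0 to 23 for 4 h against 1 h, 0 to 1 for 4 h against 2 h and 23 to 53 for the F test. The cause of these differences was not tested. The fits with only the 2 groups or with 1 array left out also hold fewer arrays.

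Small changes at 1 h and 2 h turned sign. At 1 h, M26594_at became 0.014 under quantile normalization with and without the block, and rc_AI008020_at 0.0024 and Taldo1 0.044 with the experiment block. At 2 h, rc_AI008020_at became 0.036 under quantile normalization with and without the block. For 2 h against 1 h, the experiment block gave -0.0058 for rc_AI008020_at and -0.26 for rc_AI171067_at. Leaving out 1 array turned the sign of Me1 M26594_at (-0.38 to 0.33 at 1 h, -0.64 to 0.31 at 2 h, -0.62 to 0.34 for 2 h against 1 h), rc_AI008020_at (-0.21 to 0.062, -0.14 to 0.13 and -0.039 to 0.18), rc_AI171506_at (-0.36 to 0.069 at 1 h, -0.073 to 0.46 at 2 h) and rc_AI171506_g_at (-0.35 to 0.14 at 2 h). It did so for rc_AI171067_at at 2 h (-1.07 to 0.033), for 2 h against 1 h (-0.32 to 0.80), 4 h against 1 h (-0.21 to 0.90) and 4 h against 2 h (-0.45 to 0.66). It also did so for Taldo1 at 1 h (-0.0905 to 0.033), Tkt U09256_at (-0.41 to 0.11 at 1 h, -0.12 to 0.39 at 2 h) and Tkt rc_AI059508_s_at (-0.30 to 0.024 and -0.062 to 0.26). None of these changes was called without a block or with the replicate block. With 2 arrays a group, their direction is not settled.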
